A study of Mus musculus with 4 samples.

Results

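The microRNA family of miR-148a, miR-148b and miR-152 was examined in mouse abdominal skin 24 hr after topical treatment with acetone or shikonin. Its members were taken as the rows of the deposited spot table for the mature microRNAs mmu-miR-148a, mmu-miR-148b and mmu-miR-152, without rows for the opposite strands. All 3 were present among the 710 mouse microRNAs on the array. Skin of female C57BL/6JNarl mice, 6 to 8 weeks old and otherwise untreated as far as the study's methods say, was painted with 100 μl of acetone, the solvent control, or with the same volume of shikonin at 10 μg/μl in acetone. Shikonin is a red naphthoquinone from the roots of Lithospermum erythrorhizon. Each treatment was hybridized in duplicate, which gave 2 acetone arrays and 2 shikonin arrays. The study calls the duplicates biological sample replicates, without saying how many mice each held. The spread behind each limma p-value is that between the 2 arrays of a treatment, drawn toward a spread shared by all microRNAs. That shared SD was 0.11 in log2 units. The RNA was that of whole skin, in which fewer cells of a type and less microRNA per cell cannot be told apart.

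MicroRNAs pair through their seed, the bases near the 5′ end, with sites in mRNAs and lower the stability or translation of those mRNAs. This family is known for repressing DNA methyltransferase mRNAs. miR-148a and miR-152 act on the mRNA of DNMT1, the enzyme that copies DNA methylation to new strands, and miR-148 acts on that of the de novo enzyme DNMT3B. These roles were described mostly in human cells. miR-148a is also known from liver, where it represses the low density lipoprotein receptor mRNA.

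The members share their seed, and their sequences are shown to make clear how close the 3 probes are to each other. Each probe captures its microRNA by pairing along the mature strand. The mature sequences below are those of RefSeq (build GRCm38.p6), in which all 3 members were matched by name. Bases 2 to 8, the seed, are in capitals.
mmu-miR-148a: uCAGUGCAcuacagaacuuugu
mmu-miR-148b: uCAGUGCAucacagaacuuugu
mmu-miR-152: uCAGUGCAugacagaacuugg

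Of 1738 mature mouse entries in the RefSeq table, these 3 carried the seed CAGUGCA. Counted from the 5′ end, miR-148a differed from miR-148b at 2 of 22 positions (C9U and U10C). miR-148a differed from miR-152 at 3 of the 21 positions they share (C9U, U10G and U20G), and miR-148b from miR-152 at 2 of 21 (C10G and U20G). Each member is thus distinguished from its relatives by bases at the centre and, for miR-152, near the 3′ end. The assay extends the 3′ end of the captured microRNA with biotinylated nucleotides. How much of one member was captured by the probe of another was not tested.

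The 3 members come from separate genes on different chromosomes. The mature miR-148a lies at chr6:51269829-51269850 on the minus strand, within the span of the predicted gene Gm38821. The mature miR-148b lies at chr15:103285185-103285206 on the plus strand, within the span of Copz1. The mature miR-152 lies at chr11:96850439-96850459 on the plus strand, within the span of Copz2. Copz1 and Copz2 are paralogs that encode the zeta subunits of the coatomer, the coat of vesicles between Golgi and endoplasmic reticulum, and both are read on the same strand as the microRNA they hold. The RefSeq hairpins follow, with the mature strand in capitals, which places all 3 on the 3′ arm.
Mir148a: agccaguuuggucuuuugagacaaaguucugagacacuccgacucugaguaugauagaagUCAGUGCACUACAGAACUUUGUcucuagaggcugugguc
Mir148b: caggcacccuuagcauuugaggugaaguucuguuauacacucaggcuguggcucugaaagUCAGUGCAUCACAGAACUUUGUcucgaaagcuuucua
Mir152: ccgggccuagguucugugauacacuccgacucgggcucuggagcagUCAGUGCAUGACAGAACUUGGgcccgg

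Each array carried 8 spots per microRNA, 5680 in all, of which 239 to 398 were empty, and the median spot intensity was 352 to 488. The median of 30 microRNAs of brain, liver, pancreas, embryonic stem cells and testis served as background. A microRNA counted as above background where its median spot exceeded that median by more than 3 scaled median absolute deviations. Between 196 and 269 microRNAs passed on each array, 162 passed on all 4 and 393 on none. Of 7 keratinocyte microRNAs listed further on, 4 were above background on all 4 arrays, among them miR-203 and miR-205, typical of epidermis. On shikonin replicate 2, the spots in the first 1136 rows of the table were brighter, with a median of 768 against 448 in the other rows. On the other 3 arrays the first rows had medians of 400 to 416 against 336 to 416. With 2 arrays per treatment, precision is limited throughout.

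The raw signals, before any normalization, already gave the 3 members different patterns. The median spot of miR-148a was 1232 and 1416 with acetone and 680 and 692 with shikonin. Both shikonin arrays were thus below both acetone arrays, by 1.93-fold on the geometric mean. The median spot of miR-152 was 1472 and 1652 with acetone and 752 and 640 with shikonin, which did not overlap either and differed by 2.25-fold. The median spot of miR-148b was 396 and 428 with acetone and 412 and 548 with shikonin. Here the groups overlapped, and only shikonin replicate 2, the array with the highest background, stood above the rest.

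The distance from background differed between the members. miR-148a was 3.19 and 3.02 times the threshold with acetone and 1.49 and 1.38 times with shikonin. miR-152 was 3.81 and 3.52 times the threshold with acetone and 1.65 and 1.27 times with shikonin. Both were therefore above background on all 4 arrays. miR-148b was at 1.03 and 0.913 times the threshold with acetone and at 0.902 and 1.09 times with shikonin, and so was above background on 1 array of each group. A level so close to background limits what the fold change of miR-148b can show, since no background was subtracted.

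The single spots show how evenly the difference was spread over each array. The same rows of the table were compared across arrays, and the spots are repeated measurements of 1 RNA sample, not biological replicates. miR-148a had a value on all 4 arrays at 7 of its 8 spots, and at all 7 both shikonin values lay below both acetone values. The log2 ratio of shikonin to acetone ranged over these spots from -1.22 to -0.49, with a median of -0.89. miR-152 had a value on all 4 arrays at 6 spots, and at all 6 both shikonin values lay below both acetone values, with log2 ratios from -1.49 to -0.84 and a median of -1.10. Of all 5282 spots of the array with 4 values, 13.6% had this order. That share includes spots of the 393 microRNAs above background on no array. It was not computed for microRNAs above background on all 4 arrays, as miR-148a and miR-152 were. miR-148b had this order at 0 of 8 spots. At 3 of the 8 both shikonin values lay above both acetone values, an order that 19.5% of all spots had, and the log2 ratios of miR-148b ran from -0.01 to 0.63.

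**Figure D1:**
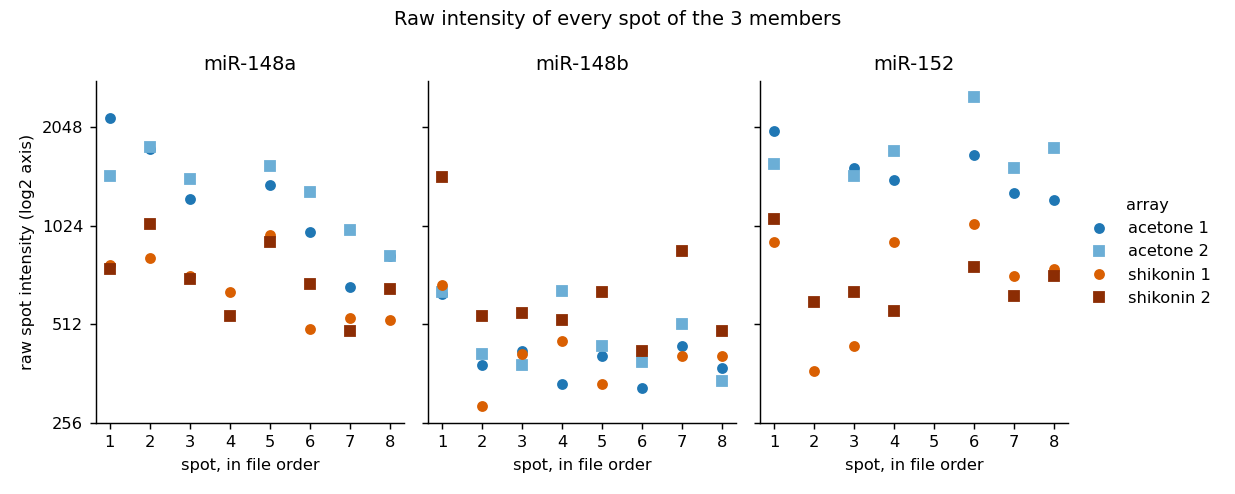
Raw intensity (log2 axis) of each of the 8 spots of miR-148a, miR-148b and miR-152, in the order of the deposited table, on the 2 acetone arrays (blue) and the 2 shikonin arrays (orange and brown). At 7 of 7 spots of miR-148a and 6 of 6 of miR-152 with a value on all 4 arrays, both shikonin values lie below both acetone values, while the arrays intermix for miR-148b.

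Spots varied within an array as well. For miR-148a, the 7 spots of acetone replicate 1 ran from 664 to 2185 and those of acetone replicate 2 from 824 to 1776, while the 8 spots ran from 496 to 960 and from 488 to 1032 with shikonin. Ranges of single spots thus touched between the groups although the medians did not. For miR-152 the spots ran from 1224 to 1985 and from 1448 to 2537 on the acetone arrays and from 368 to 1032 and from 560 to 1072 with shikonin, which did not touch. For miR-148b they ran from 328 to 632, from 344 to 648, from 288 to 672 and from 424 to 1440, in the order acetone replicates 1 and 2 and shikonin replicates 1 and 2. The highest of these, 1440, lay among the first 1136 rows, where 4 of the 8 spots of miR-148b, 3 of those of miR-148a and 1 of those of miR-152 were found. Some spots were empty. miR-148a lacked 1 spot on each acetone array, and miR-152 lacked 2 spots on each acetone array and 1 on each shikonin array.

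The treatments were compared to ask which microRNAs differ in skin 24 hr after exposure to the compound. The spot medians were quantile normalized between the 4 arrays, which gives every array the same distribution, and taken to log2. miR-148a was 10.37 and 10.15 with acetone and 9.55 and 9.30 with shikonin. The groups did not overlap, and the group means were 10.26 ± 0.16 and 9.42 ± 0.18 (SD, n = 2 each). The log2 fold change was -0.84 (SE 0.14), a 1.78-fold lower level, with a 95% interval from -1.23 to -0.44. In limma the unadjusted p was 0.00427 and the p adjusted over all 710 microRNAs 0.134, so miR-148a did not pass the threshold of 0.05. The SE, and with it the interval, depended on how limma shared the spread. It was 0.41 where the shared spread followed intensity and 0.23 among microRNAs above background on at least 2 arrays. With the replicate number as a block it was 0.088.

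miR-152 was 10.64 and 10.30 with acetone and 9.77 and 9.18 with shikonin. The groups again did not overlap, and the shikonin arrays lay farther apart from each other than the acetone arrays, with means of 10.47 ± 0.24 and 9.47 ± 0.42 (SD, n = 2 each). The log2 fold change was -0.99 (SE 0.25), a 1.99-fold lower level, with a 95% interval from -1.70 to -0.29. The unadjusted limma p was 0.0175 and the adjusted p 0.175, so miR-152 did not pass either. In the same settings as for miR-148a, its SE was 0.45, 0.30 and 0.12, in that order.

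miR-148b was 8.84 and 8.69 with acetone and 8.78 and 8.87 with shikonin. The groups overlapped, with means of 8.76 ± 0.10 and 8.83 ± 0.06 (SD, n = 2 each). The log2 fold change was 0.06 (SE 0.10), and its 95% interval ran from -0.21 to 0.34. The limma adjusted p was 0.821. This interval holds for the measured intensity, which includes the background, and does not bound the change of the microRNA itself.

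**Figure D2:**
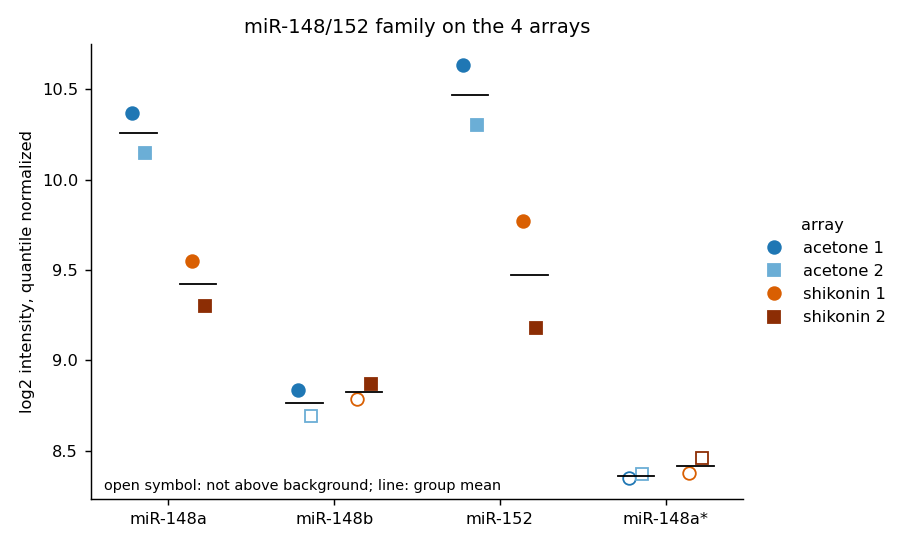
Quantile normalized log2 intensity of the 3 members and of miR-148a*, the opposite strand of the miR-148a hairpin, on each acetone array (blue) and shikonin array (orange and brown), with a line at each group mean and open symbols where a microRNA was not above background. miR-148a and miR-152 lie between 9.18 and 9.77 with shikonin and between 10.15 and 10.64 on the acetone arrays, and miR-148b between 8.69 and 8.87 on all 4.

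Read against the whole array, 0 of the 3 members passed the adjusted threshold, where limma called 0.282% of all 710 microRNAs higher and 0% lower. At an unadjusted p under 0.05, 2 of the 3 members were lower, against 11% of all microRNAs (78 lower and 47 higher). This 11%, here and below, includes dim microRNAs, whose fold changes are small, and the share among bright ones was not computed. Both shikonin values lay below both acetone values for 2 of the 3 members and for 26.8% of all microRNAs. Among the 162 microRNAs above background on all 4 arrays, which include miR-148a and miR-152, the share was 45.1%. A lower level without overlap was thus common among bright microRNAs at this normalization. The count over all microRNAs depends on the scaling, with 190 as reported, 99 with no normalization and 46 with scaling to the 75th percentile over bright microRNAs, while miR-148a and miR-152 were among them in each. The median log2 fold change of the 3 members was -0.84, that of all 710 microRNAs -0.01 and that of the 162 bright ones -0.19. Of these 162, 39 had a log2 fold change at or below that of miR-148a and 28 at or below that of miR-152, each count with the member itself. Fold changes also grew with brightness. The median size of the log2 fold change, regardless of sign, was 0.06 for microRNAs above background on no array, 0.24 for those above on 1 to 3 arrays, as miR-148b was, and 0.74 for those above on all 4.

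**Figure D3:**
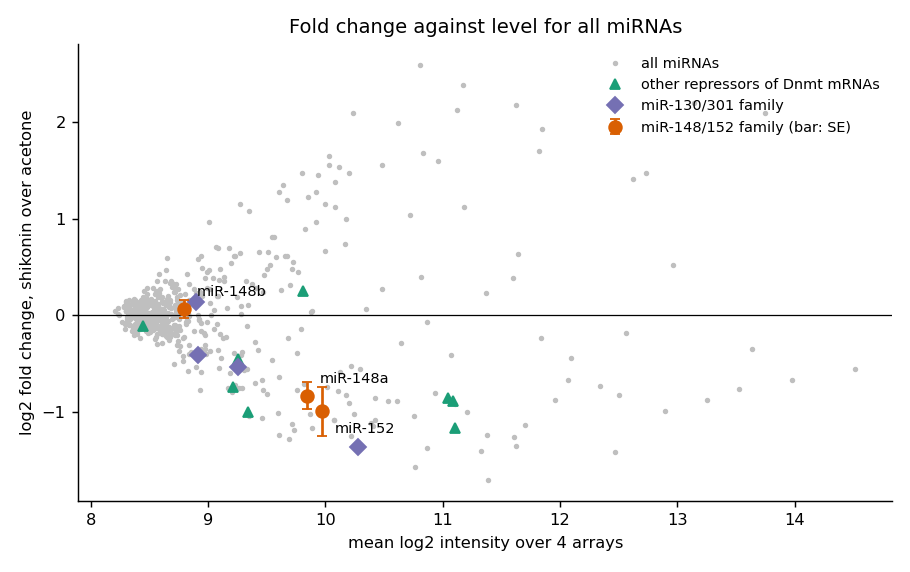
Log2 fold change (shikonin over acetone) against the mean log2 intensity over the 4 arrays for all 710 microRNAs (grey), the 3 members with limma SE (orange), the other repressors of DNA methyltransferase mRNAs (green) and the family of miR-130a and its relatives (purple). Fold changes of dim microRNAs lie close to 0, as that of miR-148b does at 0.06, and spread widely in both directions for bright ones.

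Whether miR-148b differed from the other members was asked with the difference between log2 values on each array. Probes differ in efficiency, so only the change of this difference between treatments can be read, not its size. The value of miR-148a minus that of miR-148b was 1.53 and 1.46 with acetone and 0.76 and 0.43 with shikonin, a change of -0.90. The value of miR-148b minus that of miR-152 was -1.80 and -1.61 with acetone and -0.98 and -0.31 with shikonin, a change of 1.06. Neither of these pairs overlapped between treatments, and both gave a two-sided exact permutation p of 0.333, the smallest that 2 arrays against 2 allow, so this test could not pass the threshold. Both differences are also taken against miR-148b, which was above background on 2 of the 4 arrays. For miR-148a and miR-152 the difference between treatments was 0.16, and the exact permutation p was 0.667. Adjusted over the 3 pairs, these exact p-values were 0.5, 0.5 and 0.667. The design cannot settle whether the members differ in response.

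Of the opposite strands, which are usually degraded when the mature strand enters the silencing complex, only that of miR-148a was measured. No rows for miR-148b* or miR-152* were found in the deposited spot table. miR-148a* (miR-148a-5p in RefSeq) is printed with its own seed in capitals, to show that it shares no seed with the family.
mmu-miR-148a*: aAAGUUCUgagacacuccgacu

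Its median spot was 280 and 344 with acetone and 312 and 412 with shikonin. It was above background on no array, so no fold is given. Both strands of this hairpin were therefore measured, and only the mature one stood clear of background.

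Other microRNAs known to repress DNA methyltransferase mRNAs were compared as the wider pathway. The list held 8 of them, of which 6 were lower with shikonin without overlap and 1 was higher without overlap, with 5 above background on all 4 arrays. Lower without overlap were 26.8% of all microRNAs and 45.1% of the bright ones. None of the 8 passed the adjusted threshold in limma, and 6 were lower at an unadjusted p under 0.05, against 11% of all microRNAs. Their median log2 fold change was -0.80, beside -0.84 for the 3 members, -0.01 for all 710 microRNAs and -0.19 for the 162 bright ones. miR-143 also stands on the fibroblast and mesenchyme list given further on. miR-29a, miR-29b and miR-29c, which repress the mRNAs of the de novo enzymes DNMT3A and DNMT3B, had log2 fold changes of -0.86 (SE 0.17), -1.0 (SE 0.28) and -0.74 (SE 0.13). miR-143, shown to act on DNMT3A in human colorectal cells, gave -0.89 (SE 0.19). miR-126-3p, best known from endothelium and shown to act on DNMT1 in human T cells, gave -1.17 (SE 0.24). miR-185, which represses DNMT1 in human glioma cells, gave -0.45 (SE 0.13). miR-342-3p, also reported to act on human DNMT1, was higher on both shikonin arrays, at 9.85 and 10.02 against 9.59 and 9.77, with a log2 fold change of 0.25 (SE 0.12). miR-140 overlapped between the groups at -0.12 (SE 0.13) and was above background on no array. Messenger RNA was not analysed here, so these values say nothing of the methyltransferases themselves.

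The family of miR-130a, miR-130b, miR-301a and miR-301b was set beside the members because the RefSeq sequences of miR-130a, miR-130b and miR-301a begin with the 7 bases of their seed, 1 position nearer to the 5′ end, so that the canonical seeds of the families differ. In the RefSeq sequence of miR-130a, the 7 shared bases are in capitals.
mmu-miR-130a: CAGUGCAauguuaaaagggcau

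miR-130a had a log2 fold change of -1.36 (SE 0.32), miR-130b of -0.54 (SE 0.12) and miR-301a of -0.41 (SE 0.11), and each of these 3 was lower on both shikonin arrays without overlap, as 26.8% of all and 45.1% of bright microRNAs were. miR-301b overlapped at 0.14 (SE 0.17). None of the 4 passed the adjusted threshold in limma, where their adjusted p ranged from 0.151 to 0.753, and 3 were lower at an unadjusted p under 0.05, against 11% of all microRNAs.

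The microRNAs whose values over the 4 arrays, centred on their own mean, came nearest to those of each member were sought among the bright ones. The likeness is the root mean square distance in log2 units over the 4 arrays, and it is a description only. miR-720, an entry derived from a tRNA, was nearest to miR-148a at a distance of 0.0734, followed by miR-181a at 0.0747 and miR-30a at 0.0786, and their log2 fold changes were -0.73, -0.75 and -0.76. miR-125b-5p, let-7e and miR-145 were nearest to miR-152, at 0.0983, 0.103 and 0.108, with log2 fold changes of -0.88, -1.19 and -1.03. miR-2133, miR-503 and miR-1894-3p were nearest to miR-148b, at distances of 0.0367, 0.0379 and 0.0620.

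Several microRNAs that mark cell types of skin were lower as well, and their counts stand against the 26.8% of all and 45.1% of bright microRNAs that were lower without overlap and the 11% of all that were lower at an unadjusted p under 0.05. All 7 keratinocyte microRNAs on the list were lower without overlap, with log2 fold changes from -1.71 to -0.72, and their summed normalized intensity was 13121 and 11401 with acetone and 7318 and 3635 with shikonin. Of 5 fibroblast and mesenchyme microRNAs 4 were lower and 1 was higher without overlap, and the sum was 11639 and 9225 against 6378 and 9351. The higher one, miR-214, was 10.56 and 10.69 in log2 with acetone and 10.95 and 12.53 with shikonin, which weighs on the last sum. All 4 striated muscle microRNAs were lower without overlap, with sums of 10350 and 5442 against 3299 and 4284. Of 5 leukocyte microRNAs, 2 of them above background on no array, 1 was lower and 0 higher without overlap, with sums of 3376 and 3822 against 3150 and 4793. The last of these sums carries miR-223, which was 10.52 and 10.72 in log2 with acetone and 10.40 and 11.62 with shikonin. Of 3 red blood cell microRNAs, 1 was higher and 0 lower without overlap, with sums of 1470 and 1278 against 1271 and 1474. None of the microRNAs on these 5 lists passed the adjusted threshold in limma, and at an unadjusted p under 0.05 the lower ones were 6 of keratinocytes, 4 of fibroblasts and mesenchyme, 1 of leukocytes, 1 of striated muscle and 0 of red blood cells. The part of these cell types in the values of the 3 members was not tested.

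Of the 17 alternative settings that were run, 3 (the filter, the intensity trend and the replicate block) leave the log2 values as they are, and 14 give other values. In each of these 14, miR-148a and miR-152 were lower without overlap. Those that leave out 1 array could hardly have changed this, since the groups did not overlap with all arrays. In them 251 to 291 microRNAs were lower without overlap, against 190. Over the 14, the log2 fold change of miR-148a ranged from -1.28 to -0.36 and that of miR-152 from -1.35 to -0.59. In the settings that keep all arrays, limma adjusted p ranged from 0.0496 to 0.981 for miR-148a and from 0.00773 to 0.981 for miR-152. With normexp background correction, which removes an estimated background from each spot, miR-148a was 2.10-fold and miR-152 2.39-fold lower (limma adjusted p 0.0871 and 0.111). Scaling to the 75th percentile over bright microRNAs moved the median of all microRNAs up by 0.73 and gave 127 higher and 20 lower calls, against 2 and 0. It put miR-148a at -0.36, miR-152 at -0.59 and miR-148b at 0.79, which relative to the median of all microRNAs were -1.09, -1.31 and 0.07. In this setting miR-148b was higher without overlap, as it also was without acetone replicate 1 (0.13) and without shikonin replicate 1 (0.11). Both miR-148a and miR-152 passed in limma with no normalization (adjusted p 0.0496 and 0.00773). There, and with scaling over bright microRNAs, limma used 1 pooled spread for all microRNAs. In the deposited value table miR-148a was 10.32 and 10.08 with acetone and 9.55 and 8.29 with shikonin. miR-152 was 10.69 and 10.37 and then 10.36 and 8.01 in that table, where shikonin replicate 1 lay just below the acetone arrays.

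**Figure D4:**
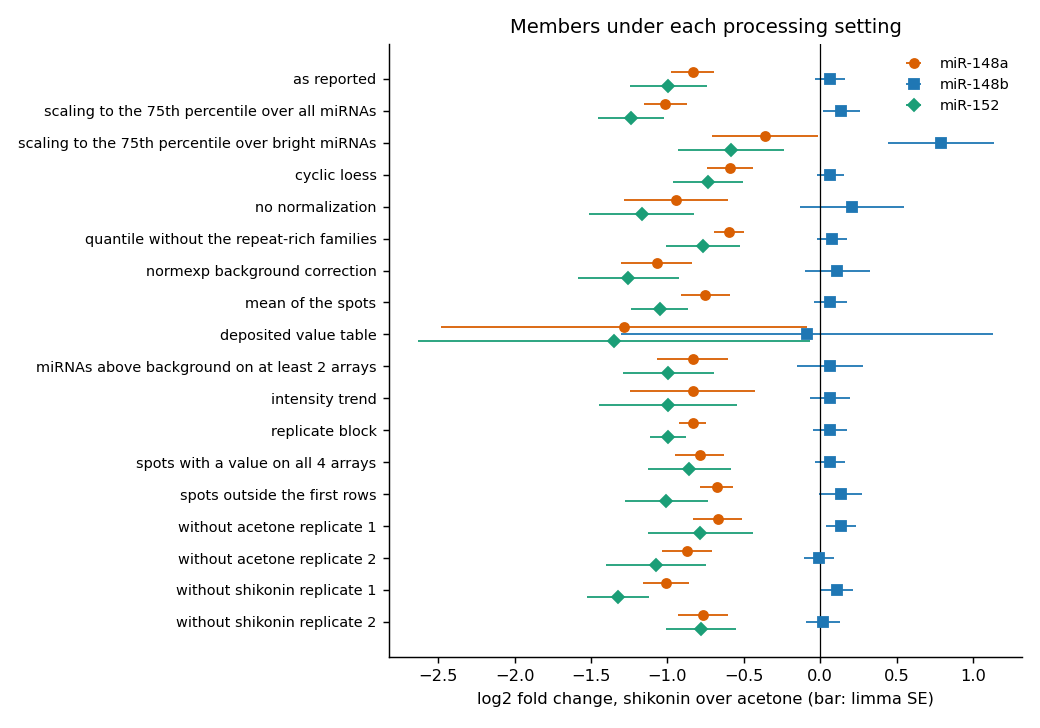
Log2 fold change (shikonin over acetone, bars limma SE) of miR-148a, miR-148b and miR-152 as reported and under each of 17 alternative settings. miR-148a and miR-152 lie below 0 in every row, between -1.35 and -0.36, and miR-148b lies between -0.085 and 0.79.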

How the data were processed

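Total RNA of 4 skin samples was hybridized to Geniom biochips (febit), on which the captured microRNA primes an enzymatic extension. The authors deposited spot intensities, linear and not normalized, with no background columns. They also deposited a table with 1 log2 value for every microRNA on each array. The methods name quantile normalization, yet the columns of that table do not share one distribution, and no source used here gives its treatment of spots and background. It was used as an alternative. Labels gave each array its treatment and number. The median of the non-empty spots was quantile normalized over the 4 arrays, floored at 1 and taken to log2. No filter and no background correction were applied, so changes of dim microRNAs are understated. Treatments were compared in limma 3.58.1 (R 4.3.3), two-sided, with Benjamini-Hochberg adjustment over 710 microRNAs and a threshold of 0.05. Alternatives were other scalings, cyclic loess, no normalization, quantile normalization without repeat-rich families (miR-669, miR-467, miR-466 and miR-297), normexp (offset 50), spot means, the value table, a filter (above background on at least 2 arrays), an intensity trend, a replicate block and leaving out each array. The members, lists and rules were chosen with earlier results of these data known. Named were the members, the opposite strand, both lists and, for each member, the 3 bright microRNAs nearest in pattern. The code was checked on data simulated with known changes.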

Additional observations from a re-analysis of the deposited data

How the results depend on the processing

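Without any 1 array in turn, the log2 fold change of miR-148a ranged from -1.01 to -0.67, that of miR-152 from -1.32 to -0.78 and that of miR-148b from -0.010 (without acetone replicate 2) to 0.13, with 0 members past the threshold, where the lone array of a group was assumed to vary like the other group. The median of the members then ranged from -1.01 to -0.67, and 0 microRNAs passed, higher or lower. Without overlap, 251 to 291 microRNAs were then lower, against 190. The replicate block left the fold changes as they were and gave miR-148a and miR-152 an adjusted p of 0.161 each. It called 0 microRNAs higher, against 2. Deviations of same-numbered arrays correlated at -0.28, so the numbers were not taken as pairs, and the crossed replicate block, added after seeing the data, called 19 higher and 16 lower with 0 members. miR-148b lay below 0 in the deposited value table, at -0.085. With no normalization miR-148a was at -0.95 and miR-152 at -1.17, and 2 members passed. The median of the members moved to -0.36 with scaling over bright microRNAs, to -0.59 with cyclic loess, to -0.60 without the repeat-rich families, to -1.07 with normexp and to -1.28 in the value table. Counts of higher calls were 0 with scaling over all microRNAs, cyclic loess, the value table or spots outside the first 1136 rows (added after seeing the data), 1 with spot means or the filter, 24 with an intensity trend, 30 with no normalization and 127 with scaling over bright microRNAs. Counts of lower calls were 2 with scaling over all microRNAs, 14 with an intensity trend, 20 over bright microRNAs and 53 with no normalization. Lower microRNAs without overlap numbered 46 over bright microRNAs, 99 with no normalization, 108 in the value table and 110 of the 248 left by the filter. The cause of these differences was not tested. Using only spots with a value on all 4 arrays, also added after seeing the data, miR-148a was at -0.79 and miR-152 at -0.86. Using only spots outside the first 1136 rows, miR-148a was at -0.68, miR-152 at -1.01 and miR-148b at 0.13. As reported, with all rows, they were at -0.84, -0.99 and 0.06. miR-148b, above background on 2 of the 4 arrays, is limited by its signal.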
